A study of Mus musculus with 42 samples.

Results

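The livers of mice fed enzastaurin were compared with the livers of mice fed GDC-0941, across all expressed genes. Enzastaurin is an inhibitor of protein kinase C beta, and GDC-0941, also called pictilisib, is an inhibitor of class I phosphatidylinositol 3-kinases. Members were chosen by the tissue and compound in the library labels, which gave 8 of the 42 libraries of the series, 4 for each compound. All were from male UM-HET3 mice, a heterogeneous stock from a cross of several inbred strains, so that individual mice differ in genotype. The diets held enzastaurin at 75 ppm or GDC-0941 at 50 ppm in the same base chow, began at 3 months of age and lasted 1 month, and tissue was taken at 4 months. The doses therefore differed between the groups. The 42 libraries include no liver of mice on the control diet, so a difference cannot be assigned to either compound. A further 4 liver libraries, from mice fed AS-703026 (pimasertib, a MEK inhibitor) at 30 ppm, entered the fit and shared the estimate of spread. Kidneys of the same groups, with 4 libraries each, were used to set liver differences beside those of another organ. The submitters call the 4 libraries of a group biological replicates. The sources used here do not give the hour of day at which tissue was taken, or whether kidney and liver libraries with the same number came from 1 animal.

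Total gene counts lay between 1940538 and 4361115 in the enzastaurin livers and between 2501384 and 3465666 in the GDC-0941 livers. The tissue labels held by marker levels. Serum albumin transcript (Alb) lay between 18900 and 27400 CPM in enzastaurin livers and between 20300 and 27800 CPM in GDC-0941 livers, where CPM are counts scaled to a common raw total. Umod, the uromodulin of the kidney's thick ascending limb, had no count in any of the 8 livers. In kidney, enzastaurin replicate 1 also held liver transcripts, with Alb at 640 CPM against at most 5.46 CPM in the GDC-0941 kidneys. Levels of single genes below are CPM scaled by TMM, a method that corrects for differences in library composition.

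No single gene separated the groups at an adjusted p of 0.05 when the 12 liver libraries were fitted together by edgeR's quasi-likelihood test. Of 9490 genes tested, 0 (0%) passed, and the smallest adjusted p was 0.226. At an unadjusted p under 0.05, 373 genes (3.93%) were higher and 389 (4.1%) lower in enzastaurin livers. In 236 genes (2.49%) all 4 enzastaurin livers lay above all 4 GDC-0941 livers, and in 232 (2.44%) they lay below. Limma voom also called 0 genes, with 949 at an unadjusted p under 0.05, while DESeq2 called 19 (0.42% of the 4519 genes it gave an adjusted p). With the enzastaurin and GDC-0941 libraries fitted alone, edgeR called 5 of 9220 genes higher (0.0542%) and 10 lower (0.108%). Those 15 are Nfil3, Tubb2a, Efna1, Chka and Lgalsl, higher in enzastaurin livers, and Nr1d2, Per3, Tef, Bhlhe41, Pcsk4, Jade1, Gys2, Gpr146, Hamp2 and 9130409I23Rik, lower in enzastaurin livers. In all 15 the groups did not overlap, and all 15 had an unadjusted p under 0.05 in the fit of 12 libraries. Both statements use the same 8 libraries in which the 15 were called, so neither is a separate test. The number called depended on each library: it was 16, 2, 10 and 3 without enzastaurin replicates 1 to 4, and 14, 7, 5 and 5 without GDC-0941 replicates 1 to 4. Nr1d2 and Pcsk4 were called each time.

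**Figure D1:**
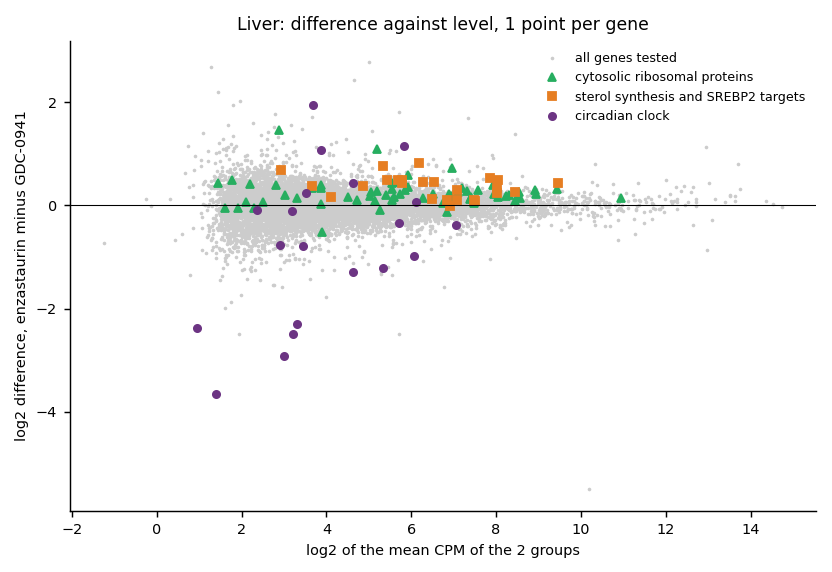
The log2 difference, enzastaurin minus GDC-0941, of each of the 9490 genes tested in liver (vertical axis) against the log2 of its mean CPM over both groups (horizontal axis), with 3 gene lists marked. Clock genes reach from -3.66 to 1.94, while sterol genes and ribosomal protein genes lie mostly a little above 0.

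The circadian clock is a transcriptional loop found in most cells: the BMAL1 protein, encoded by Arntl, pairs with CLOCK and binds E-boxes in the promoters of the Per and Cry genes, whose proteins then repress that pair. Another loop runs through the nuclear receptors REV-ERB alpha and beta (Nr1d1 and Nr1d2), which repress Arntl, Nfil3 and Cry1, and the output factors TEF, HLF and DBP activate D-boxes that NFIL3 represses. In liver these transcripts rise and fall over the day in fixed order, and many metabolic genes follow them. Of 22 clock-related genes listed, 20 passed the filter on low counts, and Dbp and Npas2 did not. At an unadjusted p under 0.05, 3 of the 20 were higher and 9 lower in enzastaurin livers, beside 3.93% and 4.1% of all genes tested, and without any 1 of the 8 libraries the counts were 3 higher and between 8 and 10 lower. The groups did not overlap for 2 genes higher and 7 lower in enzastaurin livers, beside 2.49% and 2.44% of all genes tested. The median log2 difference of the 20 was -0.57, beside 0 over all genes tested, and it was -0.34 without GDC-0941 replicate 2.

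The 3 clock genes with an unadjusted p under 0.05 and a higher level in enzastaurin livers were Arntl, Nfil3 and Cry1. Arntl had 16.8, 20.3, 18.2 and 25.0 CPM in enzastaurin livers, against 8.38, 4.09, 1.28 and 8 CPM in GDC-0941 livers. Every enzastaurin liver stood above every GDC-0941 liver, and the log2 difference was 1.94 ± 0.50 (SE), with an unadjusted p of 0.00157 and an adjusted p of 0.376 by edgeR. Nfil3, the repressor of D-box genes, had 94.2, 73.3, 62.0 and 81.6 CPM in enzastaurin livers, against 47.5, 29.4, 26.9 and 36.4 CPM in GDC-0941 livers. These groups did not overlap either, and the log2 difference was 1.15 ± 0.30 (adjusted p 0.376 with 12 libraries, 0.0387 with 8 and 0.0425 by DESeq2). Cry1, a repressor whose transcript peaks late in the cycle, had 8.12, 27.4, 19.0 and 23.5 CPM in enzastaurin livers, against 15.2, 7.63, 9.28 and 6.91 CPM in GDC-0941 livers. Here enzastaurin replicate 1 lay among the GDC-0941 livers, and the log2 difference was 1.07 ± 0.35 (adjusted p 0.467). Clock, the partner of Arntl, averaged 12.5 ± 3.42 CPM in enzastaurin livers and 10.4 ± 2.98 CPM in GDC-0941 livers (SD, n = 4 each), and the groups overlapped.

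The 9 clock genes with an unadjusted p under 0.05 and a lower level in enzastaurin livers were Ciart, Usp2, Bhlhe41, Per1, Per3, Bhlhe40, Tef, Nr1d2 and Cry2. Ciart, a repressor of the loop, had 1.08, 0, 0.413 and 0.301 CPM in enzastaurin livers, against 2.79, 6.54, 5.12 and 4.73 CPM in GDC-0941 livers. The groups did not overlap, but these levels rest on 4 counts in all enzastaurin livers and 60 in all GDC-0941 livers (log2 difference -3.66 ± 0.85, adjusted p 0.315). Per3 had 3.79, 3.08, 2.48 and 4.21 CPM in enzastaurin livers, against 12, 25.1, 16.3 and 12.7 CPM in GDC-0941 livers. The lowest GDC-0941 liver was thus well above the highest enzastaurin liver, and the log2 difference was -2.29 ± 0.61 (adjusted p 0.417 with 12 libraries and 0.0147 with 8). Bhlhe41, which encodes the repressor DEC2, had 2.71, 3.55, 2.89 and 1.81 CPM in enzastaurin livers, against 13.6, 15.5, 23.7 and 10.2 CPM in GDC-0941 livers. It too was separated without overlap, at -2.49 ± 0.96 on the log2 scale (adjusted p 0.546 with 12 libraries and 0.0147 with 8). Its relative Bhlhe40, encoding DEC1, had 18.4, 15.1, 11.2 and 13.8 CPM in enzastaurin livers, against 28.3, 47.7, 38.7 and 25.1 CPM in GDC-0941 livers. The log2 difference was -1.28 ± 0.25, with an adjusted p of 0.226 with 12 libraries, 0.0598 with 8 and 0.00425 by DESeq2.

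Nr1d2, which encodes REV-ERB beta, had 49.8, 45.7, 45.1 and 41.5 CPM in enzastaurin livers, against 77.9, 91.0, 95.7 and 91.7 CPM in GDC-0941 livers. Both groups were tight and did not overlap, and the log2 difference was -0.97 ± 0.24 (adjusted p 0.376 with 12 libraries, 0.0125 with 8 and 0.0368 by DESeq2). Its partner Nr1d1, encoding REV-ERB alpha, averaged 117 ± 30.4 CPM in enzastaurin livers and 150 ± 17.0 CPM in GDC-0941 livers (SD, n = 4 each), with overlap. Tef, the D-box activator, had 28.1, 18.7, 29.8 and 21.1 CPM in enzastaurin livers, against 47.1, 63.2, 52.8 and 59.7 CPM in GDC-0941 livers. This was a difference without overlap of -1.22 ± 0.39 (adjusted p 0.467 with 12 libraries and 0.0172 with 8). Hlf, its relative, was closer between the groups, at -0.34 ± 0.20. Usp2, a ubiquitin protease with a strong daily rhythm, had 2.16, 1.18, 2.07 and 2.41 CPM in enzastaurin livers, against 2.40, 27.5, 17.0 and 9.10 CPM in GDC-0941 livers. GDC-0941 replicate 1 lay at the enzastaurin level while the other 3 were higher (log2 difference -2.91 ± 0.73, adjusted p 0.376). Per1 differed by -2.38 ± 0.68 and Cry2 by -0.79 ± 0.31. Cry2 did not overlap between the groups, and Per1 did.

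The AS-703026 livers, which share the estimate of spread, fell on both sides for these genes. Arntl had 19.2, 0.906, 14.2 and 4.51 CPM in AS-703026 replicates 1 to 4, and Bhlhe41 had 1.75, 66.2, 0.854 and 35.4 CPM. Replicates 1 and 3 were high for Arntl and low for Bhlhe41, and replicates 2 and 4 the reverse. Per3, at 1.31, 26.3, 1.99 and 11.1 CPM, was low in replicates 1 and 3 and high in 2 and 4. With these libraries in the fit edgeR called none of the listed clock genes and DESeq2 called 3 (Bhlhe40, Nr1d2 and Nfil3), and edgeR called 5 with the 8 libraries alone. For these 3 genes the AS-703026 livers thus spanned the gap between the other 2 groups. Ciart, Usp2 and Per1 did not pass the filter on low counts in the fit of 8.

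**Figure D2:**
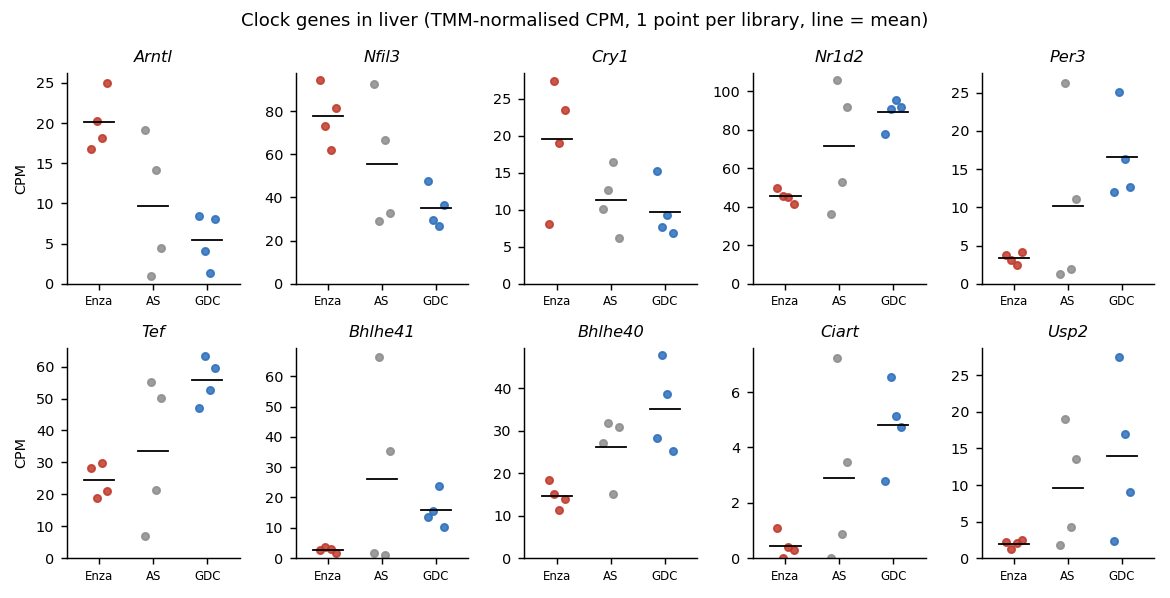
Levels of 10 clock genes in liver (TMM-normalised CPM, vertical axes from 0) for enzastaurin (Enza), AS-703026 (AS) and GDC-0941 (GDC), with 1 point per library and a line at the mean of 4. Enzastaurin livers cluster at low levels for Nr1d2, Per3, Tef and Bhlhe41, GDC-0941 livers lie higher, and AS-703026 livers spread over both ranges.

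Promoter sequences of the clock genes are shown so that the elements named above can be seen in members on each side of the comparison. Of the 20 genes, 17 had at least 1 promoter in the RefSeq table, 24 promoters in all, each from 250 bases before to 50 bases after a transcript start. Motifs were searched on both strands: the E-box CACGTG, the D-box as TTATGTAA or TTACGTAA, and the ROR/REV-ERB element as TAGGTCA or TGGGTCA. The E-box was found in 6 of the 17 genes, the D-box in 1 and the ROR/REV-ERB element in 2. Over all 32851 promoters the shares were 7.15%, 1.06% and 6.45%. These shares are per promoter and the counts are per gene, and a gene with several promoters had more places for a match. The counts and shares are therefore not like for like. The 4 genes printed first were lower in enzastaurin livers, and the last 2, Arntl and Nfil3, were higher. Capitals mark the E-box in Ciart, Bhlhe41 and Tef, the D-box in Per3 and the ROR/REV-ERB element in Arntl and Nfil3, where the Nfil3 match is on the opposite strand to the gene.
Ciart (GRCm38.p6, chr3:95882179-95882478, minus strand): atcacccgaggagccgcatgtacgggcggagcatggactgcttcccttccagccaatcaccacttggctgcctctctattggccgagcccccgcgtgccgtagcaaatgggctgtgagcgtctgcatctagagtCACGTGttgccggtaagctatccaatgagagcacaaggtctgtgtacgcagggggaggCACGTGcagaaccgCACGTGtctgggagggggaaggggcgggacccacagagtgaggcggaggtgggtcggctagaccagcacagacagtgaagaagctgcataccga
Bhlhe41 (GRCm38.p6, chr6:145865371-145865670, minus strand): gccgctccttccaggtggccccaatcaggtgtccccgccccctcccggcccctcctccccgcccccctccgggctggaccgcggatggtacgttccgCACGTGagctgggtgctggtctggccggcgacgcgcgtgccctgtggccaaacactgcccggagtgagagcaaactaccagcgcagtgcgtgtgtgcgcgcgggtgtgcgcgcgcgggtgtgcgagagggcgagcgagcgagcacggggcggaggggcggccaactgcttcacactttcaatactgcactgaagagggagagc
Tef (GRCm38.p6, chr15:81802423-81802722, plus strand): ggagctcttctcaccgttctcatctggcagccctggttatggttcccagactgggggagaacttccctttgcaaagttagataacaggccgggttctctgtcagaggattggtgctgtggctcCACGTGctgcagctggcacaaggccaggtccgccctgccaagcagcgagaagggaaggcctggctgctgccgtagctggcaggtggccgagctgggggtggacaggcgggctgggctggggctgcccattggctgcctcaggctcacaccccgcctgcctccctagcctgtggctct
Per3 (GRCm38.p6, chr4:151044616-151044915, minus strand): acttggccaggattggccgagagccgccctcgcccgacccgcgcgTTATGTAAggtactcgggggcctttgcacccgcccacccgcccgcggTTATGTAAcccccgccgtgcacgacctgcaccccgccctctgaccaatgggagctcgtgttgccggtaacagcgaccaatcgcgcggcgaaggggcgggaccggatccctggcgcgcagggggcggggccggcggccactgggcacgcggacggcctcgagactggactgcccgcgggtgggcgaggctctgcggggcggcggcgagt
Arntl (GRCm38.p6, chr7:113207261-113207560, plus strand): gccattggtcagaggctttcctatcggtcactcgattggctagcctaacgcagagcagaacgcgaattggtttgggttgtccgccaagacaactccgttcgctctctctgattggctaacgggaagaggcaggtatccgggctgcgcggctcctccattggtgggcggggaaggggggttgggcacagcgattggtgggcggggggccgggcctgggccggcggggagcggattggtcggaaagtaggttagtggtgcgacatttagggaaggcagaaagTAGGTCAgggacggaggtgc
Nfil3 (GRCm38.p6, chr13:52980990-52981289, minus strand): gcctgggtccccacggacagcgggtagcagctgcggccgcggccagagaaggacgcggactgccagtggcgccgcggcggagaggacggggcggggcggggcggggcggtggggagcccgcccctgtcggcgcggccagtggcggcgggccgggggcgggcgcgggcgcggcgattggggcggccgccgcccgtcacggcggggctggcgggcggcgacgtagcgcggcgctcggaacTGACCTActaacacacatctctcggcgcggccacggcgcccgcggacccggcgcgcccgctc

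Ciart held 3 E-boxes and Per3 2 D-boxes in these windows, and Bhlhe41 and Tef held 1 E-box each. A match describes the letters only, and binding was not measured. Cry1, which was higher in enzastaurin livers, also had an E-box in its promoter, so the motif alone did not sort the genes by direction.

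Several clock genes stood on the same side in kidney, in separate libraries of the same diets. Arntl had 11.7, 18.5, 15.8 and 16.6 CPM in enzastaurin kidneys, against 3.58, 4.62, 7.09 and 3.73 CPM in GDC-0941 kidneys. The groups did not overlap, and the log2 difference was 1.77 ± 0.48, beside 1.94 ± 0.50 in liver. Nfil3 had 12.4, 15.5, 12.6 and 6.24 CPM in enzastaurin kidneys, against 4.30, 5.05, 0.506 and 3.35 CPM in GDC-0941 kidneys. It was separated without overlap at 1.71 ± 0.52, beside 1.15 ± 0.30 in liver. Per3 had 3.91, 3.78, 8.67 and 4.56 CPM in enzastaurin kidneys, against 18.6, 10.1, 12.1 and 13.2 CPM in GDC-0941 kidneys, again without overlap (-1.27 ± 0.52 in kidney and -2.29 ± 0.61 in liver). Bhlhe41 differed by -2.26 ± 0.93 in kidney, Ciart by -2.12 ± 0.86, Nr1d2 by -0.54 ± 0.22 and Cry1 by 1.42 ± 0.57. Enzastaurin kidney replicate 1, the library with liver transcripts, was the lowest of its group for Arntl.

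Of the 20 clock genes, 4 were higher and 4 lower in enzastaurin kidneys at an unadjusted p under 0.05, beside 3.43% and 5.9% of the 12262 genes in the fit of both tissues. No gene passed an adjusted p of 0.05 in kidney (0%), with 1144 at an unadjusted p under 0.05, and 42 by DESeq2. The liver and kidney differences were also tested against each other, and 0 genes passed (0%), with 828 (6.75%) at an unadjusted p under 0.05. Usp2 and Bhlhe40 were among those 828, with liver differences further from 0. Usp2 differed by -0.41 ± 0.36 in kidney and -2.91 ± 0.73 in liver (unadjusted p of the difference between tissues 0.00174, adjusted p 0.704). Bhlhe40 differed by -0.16 ± 0.31 in kidney and -1.28 ± 0.25 in liver (unadjusted p 0.0156, adjusted p 0.704).

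**Figure D3:**
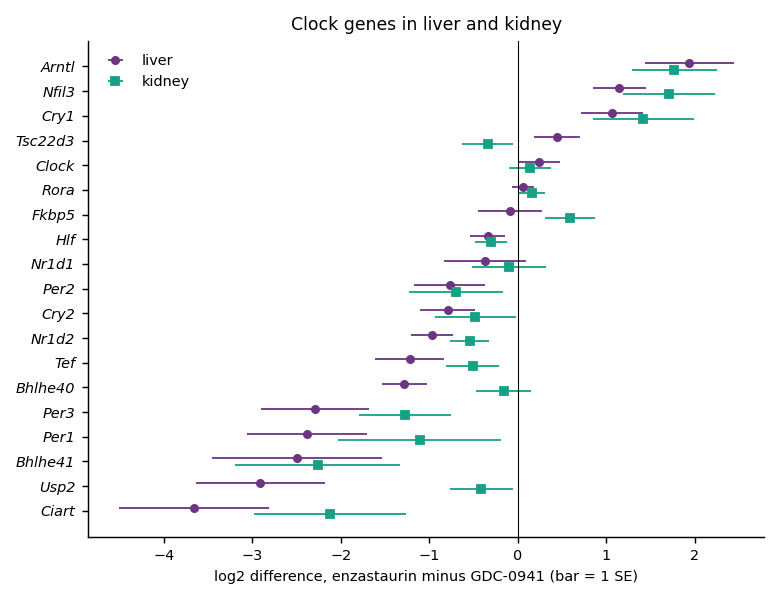
Log2 difference, enzastaurin minus GDC-0941, of 19 of the 20 clock-related genes in liver (circles) and kidney (squares), with bars of 1 SE from edgeR. Arntl, Nfil3 and Cry1 lie above 0 and Ciart, Bhlhe41 and Per3 below 0 in both tissues, while Usp2 and Bhlhe40 lie nearer 0 in kidney than in liver.

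Of 25 listed genes of sterol synthesis, 13 had a higher level in enzastaurin livers at an unadjusted p under 0.05, and none passed an adjusted p of 0.05 by edgeR or DESeq2. These genes are driven by SREBP2, a factor that is released when cell cholesterol is low. All 25 were tested, 24 had a positive log2 difference, and the median was 0.38. The 13 stand beside 3.93% of all genes tested, 0 were lower, and in 6 the groups did not overlap with enzastaurin higher, beside 2.49% of all genes tested. Hmgcs1, a synthase early in the pathway, had 314, 239, 281 and 263 CPM in enzastaurin livers, against 152, 262, 169 and 176 CPM in GDC-0941 livers. GDC-0941 replicate 2 lay within the enzastaurin range and the other 3 below it (log2 difference 0.53 ± 0.17, adjusted p 0.467). Dhcr7, which makes cholesterol in the last step, had 56.3, 65.1, 65.7 and 65.3 CPM in enzastaurin livers, against 38.7, 55.1, 47.0 and 44.4 CPM in GDC-0941 livers. The groups did not overlap, with the closest livers at 56.3 and 55.1 CPM (0.44 ± 0.11, adjusted p 0.376). Cyp51, a sterol demethylase, averaged 307 ± 27.7 CPM in enzastaurin livers and 217 ± 37.5 CPM in GDC-0941 livers (SD, n = 4 each), without overlap.

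Mvk, a kinase of the same early steps, differed by 0.68 ± 0.23 and Fdft1, the squalene synthase, by 0.50 ± 0.16. Srebf2, which encodes SREBP2 itself, averaged 32.8 ± 3.26 CPM in enzastaurin livers and 25.1 ± 3.29 CPM in GDC-0941 livers (SD, n = 4 each), without overlap. The count of 13 rested on single libraries: it was 7 without GDC-0941 replicate 1, 17 without GDC-0941 replicate 2, and 9 without enzastaurin replicate 1 or 2 or GDC-0941 replicate 3 or 4. The median stayed between 0.30 and 0.54. In kidney the list had a median of 0.10, and 1 gene was higher and 1 lower with an unadjusted p under 0.05.

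**Figure D4:**
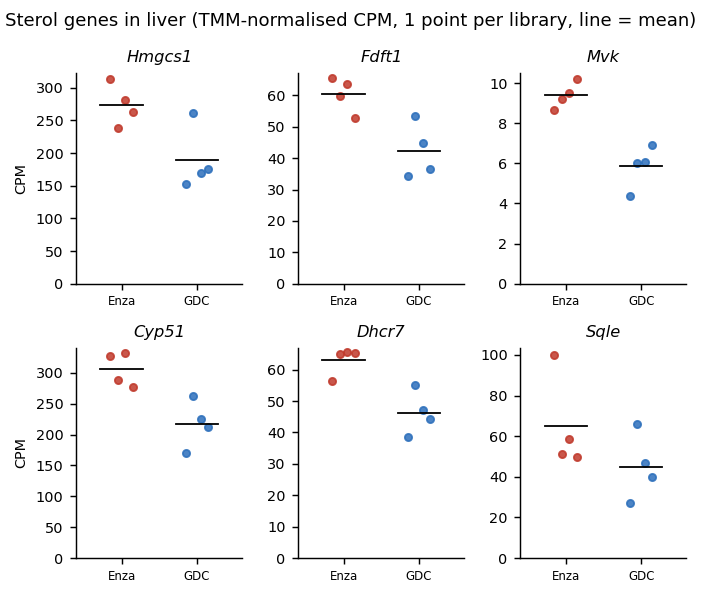
Levels of 6 sterol genes in liver (TMM-normalised CPM, vertical axes from 0) for enzastaurin (Enza) and GDC-0941 (GDC), with 1 point per library and a line at the mean of 4. Enzastaurin means are higher in all 6, and for Hmgcs1, Fdft1 and Sqle GDC-0941 replicate 2 reaches or passes the enzastaurin range.

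Of 63 cytosolic ribosomal protein genes tested, 13 had an unadjusted p under 0.05 and were higher in enzastaurin livers, beside 3.93% of all genes tested, and 0 were lower. None passed an adjusted p of 0.05 by edgeR or DESeq2, 57 had a positive log2 difference, and the median was 0.21. The count of higher genes was 8 without enzastaurin replicate 2, 7 without GDC-0941 replicate 2 and 20 without enzastaurin replicate 1. Rpl11 had 50.3, 51.6, 55.0 and 56.9 CPM in enzastaurin livers, against 46.7, 40.1, 37.1 and 34.9 CPM in GDC-0941 livers, without overlap (0.43 ± 0.11, adjusted p 0.376). Many of these genes have near-identical copies elsewhere in the genome, so their counts are uncertain. They held 1.00% ± 0.0822 of all counts in enzastaurin livers and 0.890% ± 0.0446 in GDC-0941 livers (SD, n = 4 each; exact permutation test, two-sided p = 0.0571, 0.548 adjusted over 23 measures). In kidney the list pointed the other way, with a median of -0.25. Of the 63 genes, 15 had an unadjusted p under 0.05 and were lower in enzastaurin kidneys, beside 5.9% of all genes there. By the same threshold 1 was higher, beside 3.43%. Of 72 nuclear genes of oxidative phosphorylation, 6 had an unadjusted p under 0.05 and were higher in enzastaurin livers, beside 3.93% of all genes tested, and 0 were lower, with a median of 0.09. That count was 2 without enzastaurin replicate 4 or GDC-0941 replicate 1, and 3 without enzastaurin replicate 2 or GDC-0941 replicate 2 or 4. In kidney this list too had a negative median, -0.19. At an unadjusted p under 0.05 it held 13 lower genes, beside 5.9% of all genes there, and 0 higher. A list of nuclear retained and satellite RNA had a median of -3.52 in kidney and -0.19 in liver. Of its 16 tested genes, 12 were lower in enzastaurin kidneys at that threshold and 0 in enzastaurin livers. Over all genes, 1144 passed that threshold in kidney, 686 without GDC-0941 kidney replicate 3 and 1596 without GDC-0941 kidney replicate 4. Whether the kidney counts of these lists rest on library composition or on single libraries was not tested.

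Of 27 genes of fatty acid oxidation driven by PPAR alpha, 4 had an unadjusted p under 0.05 and were lower in enzastaurin livers, beside 4.1% of all genes tested, and 0 were higher. A negative log2 difference was found in 25, and the median was -0.23. Without enzastaurin replicate 1, 7 were lower, and without GDC-0941 replicate 1, 3 were. Pex11a, a peroxisome division factor, had 64.9, 45.0, 60.8 and 50.0 CPM in enzastaurin livers, against 109, 68.7, 89.6 and 65.5 CPM in GDC-0941 livers. The closest livers, at 64.9 and 65.5 CPM, nearly met (-0.60 ± 0.16, adjusted p 0.417). Cpt1a, which admits fatty acids to mitochondria, averaged 195 ± 24.6 CPM in enzastaurin livers and 279 ± 47.6 CPM in GDC-0941 livers (SD, n = 4 each), and GDC-0941 replicate 2 lay in the enzastaurin range. Acot3, an acyl-CoA thioesterase, was low in both groups and differed by -1.98 ± 0.52. G0s2, an inhibitor of triglyceride breakdown, differed by -1.20 ± 0.32. Of 23 genes of fatty acid and triglyceride synthesis, 0 had an unadjusted p under 0.05, beside 3.93% higher and 4.1% lower of all genes tested. Their median was -0.05.

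Insulin signals through the kinases that GDC-0941 inhibits, and represses the targets of FoxO factors. Of 20 tested genes that answer to insulin or FoxO, 1 was higher in enzastaurin livers at an unadjusted p under 0.05 and 0 lower. That share of higher genes is near the 3.93% of all genes tested, and the median was -0.06. The higher gene was Pdk4, a kinase that blocks pyruvate oxidation. Pdk4 had 5.41, 6.39, 4.55 and 12.3 CPM in enzastaurin livers, against 3.19, 3.00, 1.60 and 1.82 CPM in GDC-0941 livers. The groups did not overlap (1.60 ± 0.38, adjusted p 0.318). Igfbp1, a classical FoxO target, had 17.3, 22.5, 28.9 and 8.13 CPM in enzastaurin livers, against 13.6, 3.00, 1.92 and 6.19 CPM in GDC-0941 livers, with overlap (1.71 ± 0.89, unadjusted p 0.0735). Among 26 members of the PKC and PI3K pathways, 0 had an unadjusted p under 0.05, beside 3.93% higher and 4.1% lower of all genes tested. A negative log2 difference was found in 21 and a positive one in 5, with a median of -0.11. Without 1 library, between 0 and 2 were lower. Pik3ca, a catalytic subunit of the class that GDC-0941 inhibits, differed by -0.22 ± 0.14, Pik3r1, a regulatory subunit, by -0.33 ± 0.18, and Prkca, a protein kinase C, by -0.38 ± 0.28. Prkcb, which encodes the main target of enzastaurin, was too low to be tested in liver.

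**Figure D5:**
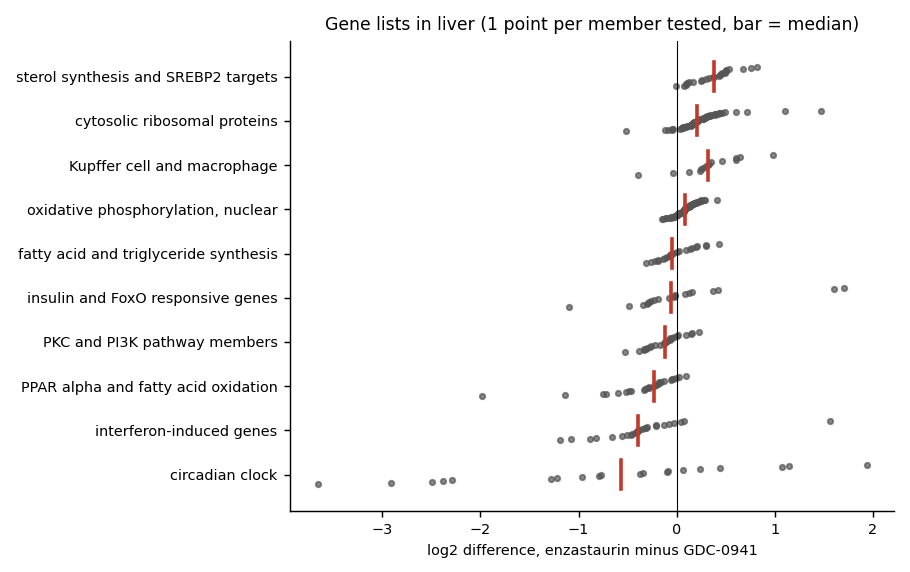
Log2 difference, enzastaurin minus GDC-0941, of each tested member of 10 gene lists in liver (grey points), with a bar at the list's median. The clock list spreads from -3.66 to 1.94 around a median of -0.57, and 24 of the 25 sterol genes lie above 0.

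The log2 difference furthest from 0 among all genes tested was that of Hamp2, a hepcidin paralogue of the mouse. Hamp2 had 44.9, 51.1, 58.3 and 46.0 CPM in enzastaurin livers, against 83.4, 2610, 3570 and 2850 CPM in GDC-0941 livers. The groups did not overlap, but GDC-0941 replicate 1 was near the enzastaurin level, and the AS-703026 livers also ranged from 30.8 to 1610 CPM. The log2 difference was -5.50 ± 1.20 (adjusted p 0.227 with 12 libraries, 0.0339 with 8 and 0.00311 by DESeq2). Hamp, which encodes the iron hormone hepcidin, averaged 3670 ± 1160 CPM in enzastaurin livers and 3840 ± 920 CPM in GDC-0941 livers (SD, n = 4 each), with overlap. The near-identity of the 2 genes makes the split of their reads uncertain. Slc40a1, the iron exporter whose breakdown hepcidin triggers, differed by -0.39 ± 0.17.

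Several other genes were separated without overlap. Tubb2a, a beta-tubulin, had 309, 330, 305 and 311 CPM in enzastaurin livers, against 142, 181, 131 and 188 CPM in GDC-0941 livers. Its enzastaurin values were tight, and the log2 difference was 0.97 ± 0.29 (adjusted p 0.467 with 12 libraries and 0.0147 with 8). In kidney Tubb2a differed by 0.58 ± 0.31, again without overlap. Pcsk4, a proprotein convertase, averaged 22.3 ± 4.83 CPM in enzastaurin livers and 55.8 ± 6.14 CPM in GDC-0941 livers (SD, n = 4 each). Gys2, the liver glycogen synthase, averaged 95.8 ± 9.25 CPM in enzastaurin livers and 146 ± 2.68 CPM in GDC-0941 livers. Stbd1, a glycogen-binding protein, was likewise lower in enzastaurin livers, at -0.66 ± 0.14 (adjusted p 0.226, and 0.00596 by DESeq2). Chka, a choline kinase, differed by 1.08 ± 0.33, Efna1, an ephrin ligand, by 0.76 ± 0.18, and Lgalsl by 0.87 ± 0.22. For Chka, Pcsk4 and Gys2 the AS-703026 livers again fell on both sides, with Chka at 55.5, 20.8, 84.6 and 24.3 CPM in replicates 1 to 4.

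DESeq2 called 4 of the 15 genes above (Nr1d2, Nfil3, Efna1 and Hamp2), Bhlhe40 and Stbd1, and 13 more. Nfe2l2, which encodes the oxidative stress factor NRF2, differed by -0.66 ± 0.14 and Ulk1, a kinase that starts autophagy, by -0.49 ± 0.11. Elovl3, a fatty acid elongase with a daily rhythm in liver, averaged 320 ± 70.8 CPM in enzastaurin livers and 168 ± 45.7 CPM in GDC-0941 livers (SD, n = 4 each). Pitx3, which overlaps Elovl3 in the annotation, differed by 1.53 ± 0.29, and reads of these genes cannot be told apart without the strand setting. The same holds for Lyrm4 (1.28 ± 0.25, overlapping Fars2) and Hddc3 (1.03 ± 0.20, overlapping Man2a2).

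Markers of other liver cells were read as the summed CPM of each list, on raw totals, and in bulk tissue fewer cells of a type and less RNA per cell cannot be told apart. Kupffer cell and macrophage markers summed to between 591 and 1090 CPM in enzastaurin livers and between 570 and 862 CPM in GDC-0941 livers. Of 15 tested, 3 with an unadjusted p under 0.05 were higher and 1 was lower, beside 3.93% and 4.1% of all genes tested, with a median of 0.32 that was 0.19 without enzastaurin replicate 3. Without enzastaurin replicate 1 or GDC-0941 replicate 3, 6 were higher, and without enzastaurin replicate 4, 5 were. The count of higher genes fell to 2 without enzastaurin replicate 3 or GDC-0941 replicate 2. The count of 1 lower was 0 without enzastaurin replicate 1, 2 or 4 or GDC-0941 replicate 1, 3 or 4. Folr2, a folate receptor of resident macrophages, had 9.74, 16.3, 12 and 13.2 CPM in enzastaurin livers, against 5.99, 6.27, 7.68 and 6.55 CPM in GDC-0941 livers, without overlap (0.98 ± 0.20, adjusted p 0.226). Lyz2, a lysozyme, differed by 0.61 ± 0.16 and C1qa, a complement subunit, by 0.46 ± 0.21. Of the 15 tested, 13 had a positive log2 difference and 2 a negative one. The lowest was -0.39, and Slc40a1, the iron exporter given above at that value, is on this list. Of 26 interferon-induced genes, 5 had an unadjusted p under 0.05 and were lower in enzastaurin livers, beside 4.1% of all genes tested, and 0 were higher, with a median of -0.39. That count rested on single libraries, at 1 without enzastaurin replicate 4 or GDC-0941 replicate 3, 3 without enzastaurin replicate 2, 2 without GDC-0941 replicate 4, 8 without enzastaurin replicate 3 and 9 without GDC-0941 replicate 1. Irf7, a regulator of the interferon response, had 4.33, 7.33, 9.92 and 9.03 CPM in enzastaurin livers, against 7.19, 8.18, 24.6 and 26.2 CPM in GDC-0941 livers, and GDC-0941 replicates 3 and 4 stood above the rest.

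Stellate cell and fibroblast markers summed to between 545 and 590 CPM in enzastaurin livers and between 446 and 549 CPM in GDC-0941 livers, and 2 of 11 were higher in enzastaurin livers at an unadjusted p under 0.05, beside 3.93% of all genes tested. These were Col1a2 (0.82 ± 0.33) and Col3a1 (0.67 ± 0.27), and enzastaurin replicate 2 was the highest library for both. The count was 0 without enzastaurin replicate 2 or GDC-0941 replicate 4, and 1 without GDC-0941 replicate 3. Pericentral hepatocyte markers summed to between 6820 and 10600 CPM in enzastaurin livers and between 9480 and 13800 CPM in GDC-0941 livers. Of 15 tested, 1 was lower at an unadjusted p under 0.05, a share near the 4.1% of all genes, and the count was 4 without enzastaurin replicate 1, 2 without enzastaurin replicate 4 or GDC-0941 replicate 1, and 0 without GDC-0941 replicate 4. Among drug-metabolism genes of the receptors CAR and PXR, 2 of 18 had an unadjusted p under 0.05 and were lower, beside 4.1% of all genes tested, and 0 were higher. The 2 were Cyp2a5 (-1.03 ± 0.36) and Por, the electron donor of the cytochromes P450 (-0.45 ± 0.14). Without enzastaurin replicate 1, 3 were lower and 2 higher, without GDC-0941 replicate 2, 2 were lower and 1 higher, and without GDC-0941 replicate 4, 1 was lower. Of 12 kidney tubule markers, 4 had no count in any of the 8 livers. Exact permutation tests were run on 23 measures of library composition, from total count to marker sums. The lowest unadjusted p, 0.0286, was that of the intestine list (0.548 adjusted over the 23) and is the smallest that 4 libraries against 4 allow. That list summed to between 119 and 167 CPM in enzastaurin livers and between 175 and 223 CPM in GDC-0941 livers. Its tested members were Apoa4 and Fabp2, which liver also expresses, and its markers Lct, Alpi and Guca2a had no count. The part of any of these measures in the results above was not tested.

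Reads may be shared where genes overlap and the strand setting is not known. This touches Per3 with Camta1, Nr1d1 with Thra, Ciart with C920021L13Rik, Cyp51 with Akap9, Fdft1 with Ctsb, Gpr146 with 3110082I17Rik, Por with Gm16061, Irf7 with Phrf1, G0s2 with Lamb3, Acot3 with 4732463B04Rik and Prkca with Apoh and Gm11655.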

How the data were processed

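RNA of liver and kidney was sequenced by CEL-seq, a barcoded 3′-end method for polyadenylated RNA, per the labels' protocols. The authors deposited raw counts per gene for 43629 Ensembl genes and 42 libraries. STAR 2.5.2b, featureCounts 1.5, Trimmomatic 0.32, bcl2fastq 1.8.4 and the build mm10 are named in the submitters' processing notes. Not given in the sources used here are the strand setting, the annotation release and any collapsing of molecular identifiers. Symbols came from GENCODE M21 and promoters from RefSeq (GRCm38.p6). All columns were matched to samples by name, with 0 unused.

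Counts were scaled by TMM, filtered by filterByExpr over the 12 liver libraries, and tested by the quasi-likelihood model of edgeR 4.0.16 in R 4.3.3, and p-values were adjusted by Benjamini-Hochberg over 9490 genes. The biological coefficient of variation was 0.191. Unadjusted and adjusted p-values in the report are from edgeR unless another tool is named. Kidney and the difference between tissues were fitted on 24 libraries. Limma 3.58.1 (voom with sample weights) and DESeq2 1.42.0 were alternatives. Composition measures were compared by two-sided exact permutation tests. On simulated counts for liver (9281 genes), the same test found 65.3% of 2-fold changes and 97% of 4-fold changes, and 7.6% of its calls were false. These counts were drawn with the fitted spread of each gene and a common mean in all groups apart from the planted changes. In the data Per3 and Bhlhe41, 4.9-fold and 5.64-fold higher in GDC-0941 livers, did not pass (adjusted p 0.417 and 0.546). The shares found in simulation therefore need not hold for the data. The lowest chi-square per gene between libraries was 8.51, so each counted as a sample. Promoters were scanned in Python 3.11.15.

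The 34 pathway lists and 17 cell type lists, the comparison and the tests were chosen with earlier results of these data known. The rule for named genes took up to 15 genes in each direction past 0.05 whose mean was 5 CPM or more and whose enzastaurin livers all lay on the same side of the GDC-0941 mean, or the next by p up to 5 where fewer passed, the 2 smallest p of each list, members of the PKC and PI3K pathways, tissue markers and the 5 smallest p of the difference between tissues. The other genes named, among them most clock and sterol genes and the calls of the fit of 8 libraries, were picked after their values were seen, and results of some genes are not reported here. The p-values measure the spread between these libraries.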

Additional observations from a re-analysis of the deposited data

Results flagged for a closer look

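In 204 groups of 4 values examined, 15 held a library far from the other 3, a gap that chance gives in about 1 of 20 groups. Most were in single genes. In enzastaurin livers, replicate 1 had 10.3 CPM of Per2 (the others 4.02 to 4.55) and 56.3 CPM of Dhcr7 (65.1 to 65.7). Enzastaurin replicate 2 had 134 CPM of Fabp4, an adipocyte fatty acid carrier (8.68 to 17.9), and 24.6 CPM of Col1a2 (8.68 to 10.3). In the same liver, B and plasma cell markers summed to 87.4 CPM (16.4 to 17.0) and pericentral hepatocyte markers to 6820 CPM (10300 to 10600). Enzastaurin replicate 3 had 37.6 CPM of Srebf2 (30.5 to 31.6), 2.07 CPM of Acot3 (0.903 to 1.08) and 47.5 CPM of Pik3ca (31.5 to 33.4). Enzastaurin replicate 4 had 50.3 CPM of Hlf (44.2 to 44.7) and 57.8 CPM of Nat8f5 (31.4 to 35.3).

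In GDC-0941 livers, replicate 1 had 38.3 CPM of Chka (the others 25.8 to 26.6) and 0.956% of its counts in cytosolic ribosomal protein genes (0.867% to 0.868%). GDC-0941 replicate 3 had 112 CPM of Jade1 (136 to 139), and stellate cell and fibroblast markers summed to 446 CPM in GDC-0941 replicate 4 (537 to 549).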

How the results depend on the processing

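The count of genes past 0.05 in liver was 0 under RLE scaling and limma voom, 19 by DESeq2, 15 with the 2 groups fitted alone and 207 with no filter on low counts; without 1 library it lay between 0 and 1. The fit of the 2 groups alone gave between 2 and 16 calls without 1 library, an alternative chosen after seeing the data. In kidney DESeq2 gave 42 calls, no filter 358, the 2 groups alone 1, and leaving out 1 library 0 to 1. The difference between tissues gave 151 calls with no filter and 0 to 1 without 1 library. The cause of these shifts was not tested. With the replicate number as a block, 0 genes passed in liver (673 at an unadjusted p under 0.05), 0 in kidney and 0 for the difference between tissues; same-numbered libraries of the 2 liver groups correlated at -0.179, -0.0989, -0.0655 and 0.153, so the numbers were not taken as pairs. Of 79 genes followed, 75 kept their direction under every setting in which they were tested; Acot3, Ciart, Per1 and Usp2 did not pass the filter with the 2 groups alone. The other 4 had log2 differences near 0, and without 1 library ranged from -0.28 to 0.06 (Hamp), -0.04 to 0.13 (Alb), -0.00 to 0.13 (Rora) and -0.34 to 0.14 (Fkbp5). Levels of a few CPM rest on few counts, with 4 counts of Ciart in all enzastaurin livers.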
